A study of Mus musculus with 6 samples.

Results

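The amino acid and glutamate transporter families were followed in mouse C3H10T1/2 cells after a knockdown of the Polycomb proteins Ring1a and Ring1b. The members were taken as every gene of the expression table whose symbol is Slc1a, Slc3a, Slc6a, Slc7a, Slc36a, Slc38a or Slc43a followed by a number only. The rule found 59 members in 7 subfamilies among 20325 genes. It uses no expression value, but the families were chosen with earlier results of these data known. C3H10T1/2 is an established line of multipotent mesenchymal cells from a C3H embryo. Parental cells at passage 10 to 15 were given either scramble siRNA (control, 3 samples) or siRNAs against both Ring1a and Ring1b (knockdown, 3 samples), and total RNA was sequenced from each. The sources used here do not give the time after transfection or the siRNA dose. They also do not say whether the samples of a group came from separate cultures, so each p-value measures only the spread among the samples, and that spread may be technical.

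Amino acids cross the plasma membrane mainly through carrier proteins. The Slc1a family couples uptake of glutamate or small neutral amino acids to the sodium gradient. The Slc6a family carries neurotransmitters, taurine, creatine and amino acids with sodium and chloride. Slc7a proteins exchange or import cationic and large neutral amino acids, several of them only when joined to a heavy chain of the Slc3a family. Slc36a, Slc38a and Slc43a members move small neutral amino acids with protons, glutamine and alanine with sodium, and large neutral amino acids by facilitated diffusion. Ring1a and Ring1b are the alternative catalytic subunits of Polycomb repressive complex 1, which attaches ubiquitin to a histone tail and is known to occupy CpG-rich promoters of silent genes.

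The values are estimated read counts divided by a size factor for each library, and they are called normalised read counts here. The transcripts of Ring1b (symbol Rnf2) were at 815, 829 and 799 in the controls, against 129, 76.5 and 152 in the knockdown. Ring1a (symbol Ring1) was at 336, 386 and 374 against 162, 268 and 186, without overlap, though its change had a limma adjusted p of 0.104. The spacing of the low values put the depth at an estimated 4580000 to 51800000 reads per library, the lowest being knockdown replicate 2, followed by control replicate 2 with 5450000. Knockdown replicate 2 stood apart: its Pearson correlation with the other libraries on the log2 scale was 0.821 to 0.867, against 0.944 or more between all other pairs, and its summed normalised counts were 19471638 against 13115793 to 13655904. Values with and without it are given for the members the results turn on. All 8 mesenchymal markers (such as Col1a1, Vim and Pdgfra) exceeded 3 reads in every library.

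Of the 59 members, 32 had a mean of at least 10 over the 6 libraries and entered the test, a limma fit on log2(value + 1) over all 12085 genes that passed the same minimum. Among them 1 rose in the knockdown, the glutamate carrier gene Slc1a6, and 1 fell, the creatine carrier gene Slc6a8, at a Benjamini-Hochberg adjusted p under 0.05. These are 6.25% of the tested members, beside 4.98% of all tested genes (3.2% higher and 1.78% lower). At an unadjusted p under 0.05 there were 10 of the 32 members (31.25%), beside 20.46% of all tested genes, the share against which unadjusted counts below are to be read. The median log2 change of the tested members was -0.06, and that of all tested genes was 0.01. The 3 knockdown values lay above all 3 controls for 8 members and below them for 10, together 56.2% of those tested, beside 44.3% of all genes (20.5% above and 23.7% below). With knockdown replicate 2 left out, 14 members were called higher and 7 lower, which is 65.6% of the 32, beside 49.9% of all genes (23.8% higher and 26.1% lower). Of these 21 calls, 17 had a log2 change of under 1 in size. All 8 members that lay above the controls and 7 of the 10 that lay below were among them.

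**Figure D1:**
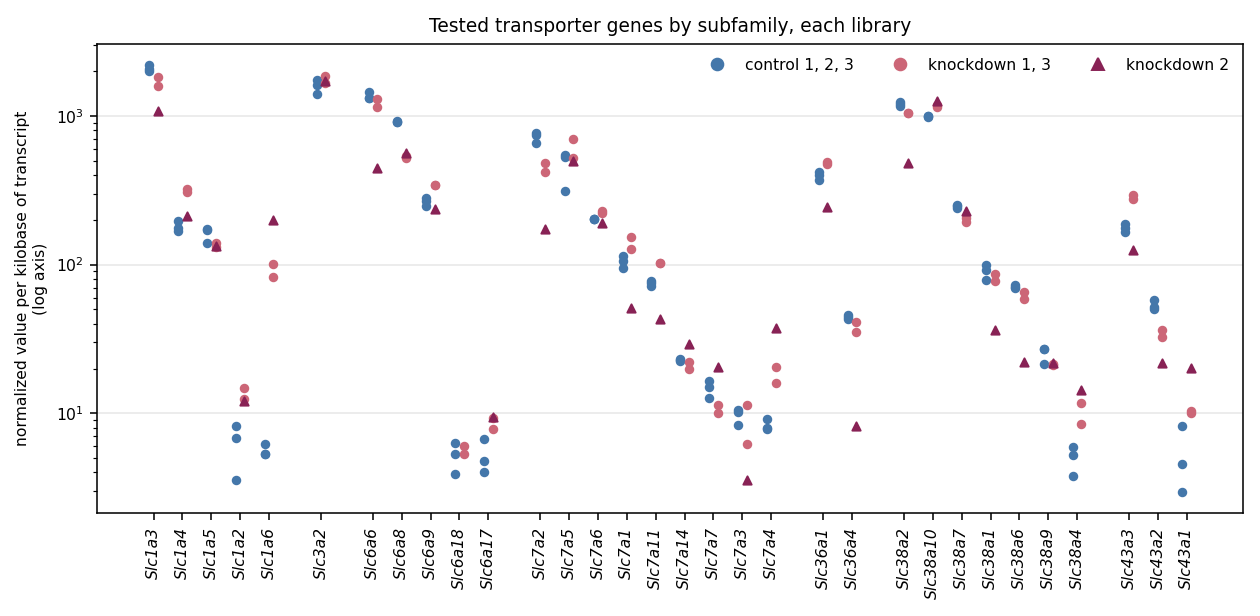
Normalised count per kilobase of transcript of each tested member on a log axis, grouped by subfamily, 1 point per library, with controls in one colour and knockdown libraries in the other and knockdown replicate 2 as a triangle; Slc6a18 is at 0 in that replicate and has no triangle. Slc1a6 shows the widest gap between the groups, from 5.34 to 6.17 per kilobase in the controls and from 82.3 to 199 in the knockdown.

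In the control cells the members covered a wide range of levels. Divided by transcript length, Slc1a3 was the most abundant at 2082 ± 96.8 normalised counts per kilobase (SD, n = 3), followed by the heavy chain gene Slc3a2 at 1581 ± 175. Then came the taurine carrier gene Slc6a6 at 1360 ± 65.4, the glutamine and alanine carrier gene Slc38a2 at 1200 ± 38.5, and Slc38a10 at 988 ± 8.19. The ranges of Slc3a2 and Slc6a6 over the control libraries overlapped, while those of the other neighbours in this order did not. Next in the same order were Slc6a8 (910 ± 12.3), the cationic amino acid carrier gene Slc7a2 (719 ± 57.8) and the large neutral amino acid exchanger gene Slc7a5 (462 ± 129 per kilobase). Slc1a6 was at 5.63 ± 0.476 per kilobase, next to Slc1a2 at 6.20 ± 2.39 and Slc43a1 at 5.23 ± 2.66, from which it did not differ beyond their spread. It stood 28th of the 32 tested members in the controls.

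The Slc1a family holds the high-affinity glutamate carriers, and here Slc1a6 rose while the dominant member Slc1a3 did not pass the test. Slc1a6 encodes a glutamate carrier best known from Purkinje cells of the cerebellum. It was at 10.9, 12.5 and 10.8 normalised counts in the controls, against 204, 404 and 167 in the knockdown. The lowest knockdown library thus lay more than an order of magnitude above the highest control, and the value in knockdown replicate 2 was the highest. The means were 11.4 ± 0.965 and 258 ± 128 (SD, n = 3 each), a 22.6-fold difference, with a log2 change of 4.28 ± 0.36 (SE) and a limma adjusted p of 0.00809. Without knockdown replicate 2 the log2 change was 3.90 ± 0.22 and the limma adjusted p 6.45e-08. The authors' deposited table of changed genes, drawn from these same libraries, gives the same gene a fold of 23.0. No other member is among its 323 genes. The title of that table carries a fold limit, so members with smaller changes may be absent for their size alone. With 1 fewer library the adjusted p passed 0.05 without control replicate 1 (0.0659), control replicate 2 (0.0602), control replicate 3 (0.0852) and knockdown replicate 1 (0.0578), while the log2 change stayed between 3.84 and 4.54 over these and the other settings run. Ccdc105, the gene that overlaps Slc1a6 in the annotation, was at 0 in 5 libraries and at 0.903 in control replicate 3.

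Since Slc1a6 and its relatives are best known from neurons and glia, the markers of those cells are given beside them. Of 7 neuronal markers, 2 (Tubb3 and Mtap2) exceeded 3 reads in every library and Snap25 and Nefl were at 0 in all. The neuronal marker sum was 1125 to 1143 in the controls and 816 to 1632 in the knockdown, mostly from Mtap2. Mtap2 was at 1049, 1061 and 1053 against 1295, 599 and 1423 (limma adjusted p = 0.962). Tubb3, a neuronal tubulin, was at 72.5, 77.7 and 63.2 against 197, 149 and 195 (limma adjusted p = 0.0225). The synaptic vesicle gene Syp was at 5.01 to 9.06 against 12.8 to 59.5 (limma adjusted p = 0.244). Of 5 astrocyte markers, 3 exceeded 3 reads in every library. Their sum was 1975 to 2171 in the controls and 888 to 2283 in the knockdown, mostly from S100b, with Aqp4 at no more than 0.259. S100b was at 1881, 1719 and 1888 against 502, 2049 and 412, so knockdown replicate 2 lay above the controls and the other knockdown libraries below. Gfap, the astrocyte filament gene, was at 37.3, 35.1 and 31.6 against 4.52, 21.3 and 5.68. Gja1, the gap junction gene, was at 246, 221 and 234 against 417, 183 and 465, so it went the other way from Gfap in knockdown replicates 1 and 3. The limma adjusted p was 0.307 for S100b, 0.133 for Gfap and 0.467 for Gja1. The part of these markers in the Slc1a6 result was not tested.

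Slc1a3 encodes the glial-type glutamate carrier GLAST. It was at 5348, 5044 and 4882 in the controls, against 4486, 2649 and 3871 in the knockdown. All knockdown values lay below the controls, the lowest in knockdown replicate 2. The log2 change was -0.51 ± 0.23 (limma adjusted p = 0.285), and without that replicate -0.29 ± 0.07 (limma adjusted p = 0.00433). Slc1a2, which encodes the main glutamate carrier of forebrain astrocytes, was at 17.4, 7.52 and 14.4 against 31.1, 25.5 and 26.3. Its groups did not overlap, but the value in control replicate 2 corresponds to only 3 reads. Its means of 13.1 ± 5.05 and 27.6 ± 3.03 differed by a log2 change of 1.09 ± 0.36 with a limma adjusted p of 0.163 (0.0197 without knockdown replicate 2). Slc1a1, the widespread neuronal and epithelial glutamate carrier gene, was at 2.51 to 3.61 in the controls and 0 to 2.65 in the knockdown. Slc1a7, known from the retina, was at 2.51 to 3.45 and 2.26 to 8.21, and neither was abundant enough to test. In bulk RNA, a change in the number of cells that express a gene and a change in its RNA per cell cannot be told apart.

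On the scale per kilobase, the summed level of these 5 glutamate carriers was 2203, 2074 and 2011 in the controls and 1950, 1297 and 1681 in the knockdown. Slc1a6 made up 0.243%, 0.298% and 0.266% of that sum in the controls and 5.14%, 15.3% and 4.90% in the knockdown. Slc1a3 made up 99.3%, 99.5% and 99.3% and then 94.1%, 83.5% and 94.2%. Slc1a3 therefore remained the main glutamate carrier transcript in all 6 libraries. These groupings by substrate were made after the values had been seen and carry no test.

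The promoters of the glutamate carrier genes differ in CpG content, and the 250 bases upstream of the start sites of the 3 tested ones are shown because CpG-rich promoters are the usual binding places of Polycomb complexes. The sequences are RefSeq's for GRCm38.p6, read 5′ to 3′ along the gene's own strand, with every CG dinucleotide in capitals. The Slc1a6 window is chr10:78780246-78780495 (plus strand), the Slc1a3 window chr15:8710808-8711057 (minus strand) and the Slc1a2 window chr2:102706188-102706437 (plus strand).
Slc1a6: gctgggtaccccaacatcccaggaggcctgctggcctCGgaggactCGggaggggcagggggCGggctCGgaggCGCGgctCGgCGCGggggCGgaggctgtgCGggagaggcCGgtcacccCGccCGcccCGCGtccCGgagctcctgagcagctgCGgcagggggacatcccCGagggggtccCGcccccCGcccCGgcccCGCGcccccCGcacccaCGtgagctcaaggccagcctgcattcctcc
Slc1a3: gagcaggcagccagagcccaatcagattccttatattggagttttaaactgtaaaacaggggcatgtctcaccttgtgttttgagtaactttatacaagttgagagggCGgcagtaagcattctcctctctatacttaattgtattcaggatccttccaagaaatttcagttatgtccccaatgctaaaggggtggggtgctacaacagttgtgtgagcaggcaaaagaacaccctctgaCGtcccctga
Slc1a2: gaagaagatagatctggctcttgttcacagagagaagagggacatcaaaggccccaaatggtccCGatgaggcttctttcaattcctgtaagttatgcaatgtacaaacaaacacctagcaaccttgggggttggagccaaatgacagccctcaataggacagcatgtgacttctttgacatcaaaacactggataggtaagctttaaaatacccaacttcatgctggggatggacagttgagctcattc
The Slc1a6 window holds 26 CG dinucleotides at 78.8% G+C, a count that 9.59% of all 32851 RefSeq windows of that length reach or exceed. The Slc1a3 window holds 2 (reached by 81.2% of windows) and the Slc1a2 window 1 (reached by 92.1%), both at 44.8% G+C. Of the carriers too low to test, Slc1a1 holds 27 CG dinucleotides in its richest window, more than Slc1a6, and Slc1a7 holds 6. A CpG-rich window was thus not particular to Slc1a6 in this family. Promoters were matched for 41 of the 59 members by symbol. Taking the window richest in CG of each gene, the 22 tested members had a median of 15 (range 1 to 38), the 19 members too low to test a median of 8 (range 1 to 27), and all 27025 genes a median of 6. The counts describe sequence only, and no binding was measured in these RNA libraries.

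The other members of the Slc1a family exchange small neutral amino acids. Slc1a4, which carries serine, alanine and cysteine, was at 651, 769 and 689 in the controls, against 1195, 820 and 1262 in the knockdown. The groups did not overlap, and knockdown replicate 2 was the closest to the controls. The log2 change was 0.61 ± 0.21 with a limma adjusted p of 0.182 (0.81 ± 0.07 and 3.25e-06 without knockdown replicate 2). Slc1a5, the glutamine exchanger gene, was at 388, 479 and 475 against 383, 366 and 362, a log2 change of -0.27 ± 0.16 (limma adjusted p = 0.377). Per kilobase, Slc1a4 made up 54.3%, 53.3% and 50.7% of the sum of these 2 genes in the controls and 68.9%, 61.4% and 71.2% in the knockdown, so its share was higher in every knockdown library.

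**Figure D2:**
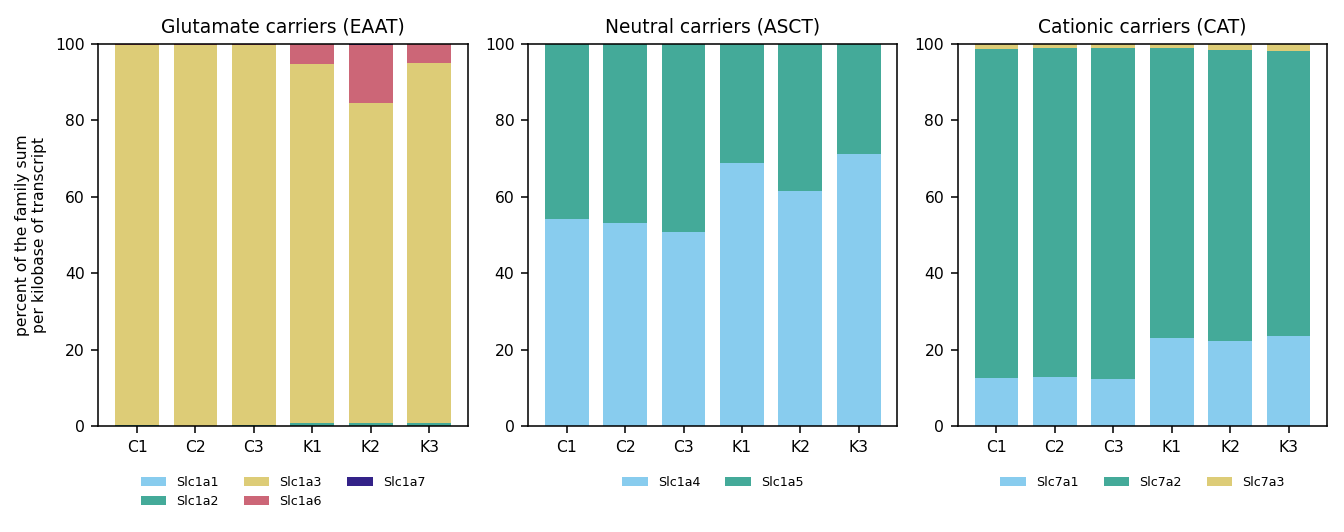
Share in percent of each carrier in the summed normalised count per kilobase of its substrate group, for control libraries C1 to C3 and knockdown libraries K1 to K3. Slc1a6 takes 4.90% to 15.3% of the glutamate carriers in the knockdown against at most 0.298% in the controls, and Slc7a1 takes 22.3% to 23.7% of the cationic carriers against at most 13.0%.

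Among the 17 members of the Slc6a family, 5 were tested, and Slc6a8 fell. Slc6a8 imports creatine, the substrate of the phosphocreatine energy buffer, and is therefore not an amino acid carrier in the strict sense. It was at 2628, 2629 and 2691 in the controls, against 1520, 1628 and 1563 in the knockdown. The groups were far apart compared with their spread, and knockdown replicate 2 lay with its group. The means were 2649 ± 35.9 and 1570 ± 54.7 (SD, n = 3 each), 1.69-fold lower, with a log2 change of -0.75 ± 0.13 and a limma adjusted p of 0.0322 (-0.78 ± 0.05 and 1.69e-07 without knockdown replicate 2). The adjusted p was 0.0955 after scaling every library to the same total. It was 0.188, 0.177 and 0.215 without control replicates 1, 2 and 3, 0.144 without knockdown replicate 1 and 0.114 without knockdown replicate 3.

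Slc6a6, the taurine carrier gene and the most abundant of its family, was at 8202, 8881 and 8162 in the controls and 7106, 2772 and 7991 in the knockdown. Its low value in knockdown replicate 2 set the log2 change of -0.64 ± 0.42 (limma adjusted p = 0.425), which was -0.16 ± 0.07 (limma adjusted p = 0.0623) without that library. Slc6a9, which takes up glycine, was at 647, 734 and 700 against 902, 621 and 902, with knockdown replicate 2 below all controls. Its log2 change was 0.20 ± 0.20 (limma adjusted p = 0.542), and 0.38 ± 0.07 (limma adjusted p = 0.000559) without that library. Slc6a17, a vesicular carrier of neutral amino acids, was at 25.3 to 42.6 and 49.8 to 59.5, without overlap and with a limma adjusted p of 0.161. Slc6a18, a carrier known from the kidney, was at 9.50 to 15.3 against 12.8, 0 and 14.7.

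The Slc6a members described next, among them several neurotransmitter carriers, were near the detection limit. The noradrenaline carrier gene Slc6a2 was at 5.01 to 7.24 against 4.43 to 12.8, and the proline carrier gene Slc6a7 at 2.51 to 8.13 against 1.42 to 4.25. The betaine and GABA carrier gene Slc6a12 was at 0 in the controls, against 1.13, 4.25 and 1.42 in the knockdown, where no library exceeded 3 reads. The serotonin carrier gene Slc6a4 was at no more than 3 reads in any library, as were Slc6a3, Slc6a5, Slc6a13, Slc6a14 and Slc6a15.

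**Figure D3:**
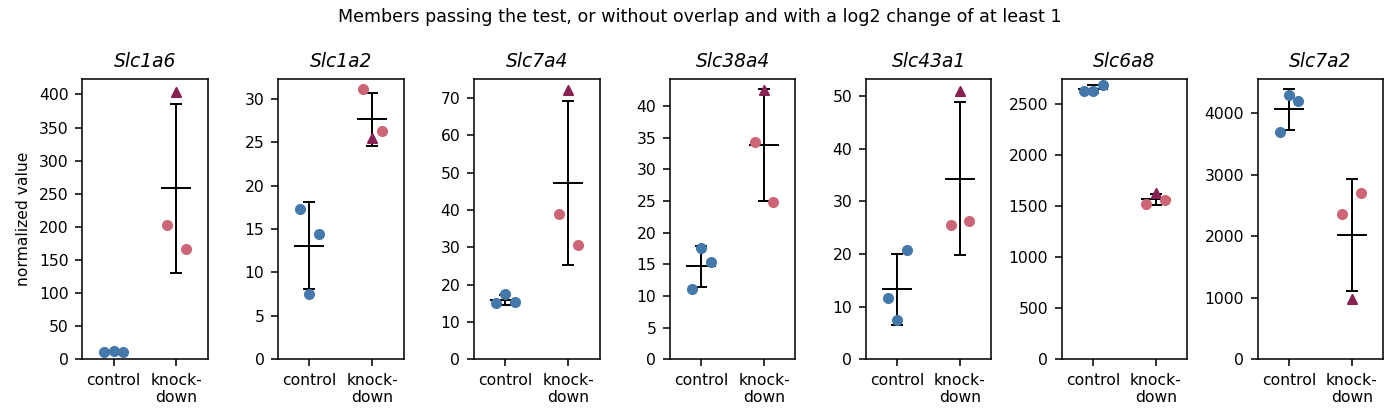
Normalised read count of the members that passed the test or whose groups did not overlap with a log2 change of at least 1 in size; bars are means ± SD of 3 libraries, points are libraries and triangles mark knockdown replicate 2. Slc1a6 and Slc6a8 passed the test, and in Slc7a2 the triangle (985) lies well below the other knockdown values (2356 and 2711).

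The cationic amino acid carriers of the Slc7a family import arginine, lysine and ornithine. None of the 9 tested Slc7a members passed the limma test at an adjusted p under 0.05, and 2 had an unadjusted p under 0.05 (20.46% of all genes did). Slc7a2, the most abundant of the family per kilobase, was at 3691, 4301 and 4198 in the controls, against 2356, 985 and 2711 in the knockdown. All knockdown values were lower, with knockdown replicate 2 lowest. The means were 4063 ± 327 and 2017 ± 911, 2.01-fold lower, with a log2 change of -1.13 ± 0.40 and a limma adjusted p of 0.194. Without that replicate the log2 change was -0.68 ± 0.08 (limma adjusted p = 3.7e-05), and with a correction for transcript length it was -0.88 ± 0.18 (limma adjusted p = 0.0338). Slc7a1, the ubiquitous member, was at 680, 824 and 759 against 915, 366 and 1094, so that knockdown replicate 2 and the other knockdown libraries lay on opposite sides of the controls. Its log2 change was -0.07 ± 0.43 (limma adjusted p = 0.921) with all libraries and 0.41 ± 0.09 (limma adjusted p = 0.00441) without knockdown replicate 2. Per kilobase, Slc7a2 made up 86.2%, 85.8% and 86.7% of the cationic carriers in the controls and 75.7%, 76.2% and 74.5% in the knockdown, and Slc7a1 12.5%, 13.0% and 12.3% and then 23.2%, 22.3% and 23.7%. These shares, also chosen after the values had been seen, were alike in all 3 knockdown libraries.

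Slc7a4 is related in sequence to the cationic carriers. It was at 15.0, 17.5 and 15.4 in the controls, against 39.0, 72.3 and 30.6 in the knockdown. The groups did not overlap, and knockdown replicate 2 was the highest. The means of 16.0 ± 1.37 and 47.3 ± 22.1 differed 2.96-fold, a log2 change of 1.42 ± 0.36 with a limma adjusted p of 0.0968 (1.07 ± 0.27 and 0.00562 without knockdown replicate 2). Slc7a3 was at 19.9 to 25.1 against 8.50 to 27.0, and Slc7a14, which resides in lysosomes, was at 135 to 138 against 118 to 175.

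The heterodimeric exchangers join an Slc7a light chain to an Slc3a heavy chain. Slc3a2, the heavy chain known as CD98, was at 2532, 3161 and 2933 in the controls, against 3006, 3121 and 3359 in the knockdown. The groups overlapped, and the log2 change of 0.14 ± 0.15 had a limma adjusted p of 0.57. Slc7a5, the light chain that exchanges glutamine for leucine and other large neutral amino acids, was at 1104, 1917 and 1858 against 1826, 1744 and 2441. Control replicate 1 was the low library, and the log2 change of 0.33 ± 0.28 (limma adjusted p = 0.494) was 0.07 without it. Slc7a11, the light chain of the cystine and glutamate exchanger, was at 417, 438 and 450 against 596, 250 and 599. Knockdown replicate 2 lay below the controls and the other knockdown libraries above them. The log2 change was 0.04 ± 0.37 (limma adjusted p = 0.948), and 0.46 ± 0.07 (limma adjusted p = 0.000183) without that library. Slc7a6 was at 754 to 764 against 710 to 862 and Slc7a7 at 27.2 to 35.3 against 21.5 to 43.4, both light chains that exchange cationic for neutral amino acids. The light chains of Slc7a8, Slc7a9 and Slc7a10 and the heavy chain of Slc3a1 were too low to test. Slc7a10 reached 9.74 and Slc7a8 reached 8.50 in knockdown replicate 2, both within 3 reads in that library, and Slc3a1 was at 3.11 to 5.89 in the controls and 0 to 5.73 in the knockdown.

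The promoter of Slc7a11 is shown because this gene is a known target of the amino acid response through the transcription factor ATF4, and other genes of that response are counted among the pathway lists. The motif searched was TGATGNAA on both strands, and its matches are in capitals in the 250 bases upstream of the start (RefSeq, GRCm38.p6, chr3:50443614-50443863, minus strand).
Slc7a11: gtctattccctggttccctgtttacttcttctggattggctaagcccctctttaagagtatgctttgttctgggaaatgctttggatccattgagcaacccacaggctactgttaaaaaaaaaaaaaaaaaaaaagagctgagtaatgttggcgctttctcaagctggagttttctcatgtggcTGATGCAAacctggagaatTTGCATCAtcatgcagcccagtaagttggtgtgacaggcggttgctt
The window holds TGATGCAA at bases 66 to 59 before the start and a match on the opposite strand, TTGCATCA, at bases 47 to 40. Across all 32851 windows 3.45% hold the motif, and of the 62 windows of the members 3 do (4.84%), in Slc7a11 and Slc7a7. A match is a description of the letters and not evidence of binding in these cells.

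The Slc38a family includes the sodium-coupled carriers of glutamine and alanine, and none of its 7 tested members passed the limma test (1 had an unadjusted p under 0.05, as did 20.46% of all genes). Slc38a2, the amino-acid-regulated member of system A, was at 5430, 5786 and 5563 in the controls, against 4877, 2238 and 4855 in the knockdown. The groups did not overlap, with knockdown replicate 2 far below the others. The log2 change was -0.57 ± 0.34 (limma adjusted p = 0.38), and -0.20 ± 0.05 (limma adjusted p = 0.00718) without it. Slc38a4, a system A member known from liver and placenta, was at 11.1, 17.5 and 15.4 against 34.2, 42.5 and 24.9. The groups did not overlap, and the means of 14.7 ± 3.26 and 33.9 ± 8.83 differed 2.31-fold. The log2 change was 1.14 ± 0.31 with a limma adjusted p of 0.109 (0.97 ± 0.31 and 0.0204 without knockdown replicate 2). Slc38a1, the third system A member, was at 401 to 505 against 183 to 436. Slc38a2 made up 92.2% to 93.4% of system A per kilobase in the controls and 90.5% to 92.2% in the knockdown.

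Several Slc38a members work at lysosomes or have less settled roles. Slc38a7, a lysosomal glutamine exporter, was at 799 to 836 in the controls and 643 to 757 in the knockdown, without overlap. Slc38a9, the lysosomal arginine sensor, was at 190 to 242 against 188 to 196. Slc38a10 was at 2938 to 2987 against 3450 to 3758, also without overlap, with a log2 change of 0.27 ± 0.13 and a limma adjusted p of 0.304. Slc38a6 was at 159 to 166 against 51.0 to 151, lowest in knockdown replicate 2. The system N gene Slc38a3 was at 2.71 to 12.5 against 4.25 to 11.9 and was too low to test. The proton-coupled lysosomal carrier gene Slc36a1, the most abundant Slc36a member, was at 777, 815 and 718 against 924, 472 and 949. Its log2 change was -0.04 ± 0.30 (limma adjusted p = 0.93), and 0.28 ± 0.07 (limma adjusted p = 0.00367) without knockdown replicate 2, the low library. Slc36a4 was at 177 to 190 against 34.0 to 170, again lowest in that replicate.

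**Figure D4:**
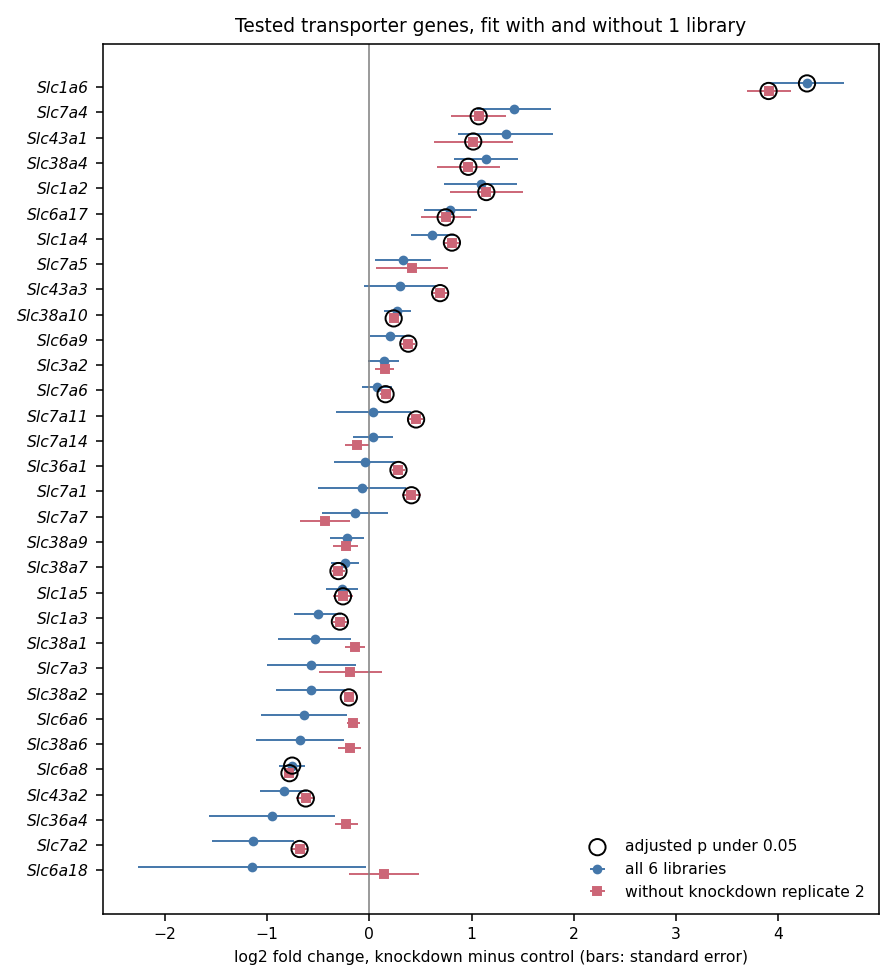
Log2 change (knockdown against control) of each tested member with its SE from limma, for all 6 libraries (circles, ringed where the adjusted p is under 0.05) and without knockdown replicate 2 (squares). The SE is smaller without that library in every member but Slc1a2 and Slc7a5, and Slc7a1, Slc7a14, Slc36a1 and Slc6a18 change sign.

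The 3 Slc43a members were all tested with limma and none passed; 2 had an unadjusted p under 0.05, as did 20.46% of all genes. Slc43a3, the most abundant per kilobase, is known as a carrier of purine nucleobases rather than of amino acids. It was at 428, 484 and 455 in the controls, against 716, 323 and 755 in the knockdown, with knockdown replicate 2 below all controls. The log2 change was 0.30 ± 0.35 (limma adjusted p = 0.603), and 0.69 ± 0.07 (limma adjusted p = 1.07e-05) without that library. Slc43a1, a facilitated carrier of large neutral amino acids, was at 11.7, 7.52 and 20.8 against 25.4, 51.0 and 26.3. The groups did not overlap, and control replicate 2 again corresponds to 3 reads. The means of 13.3 ± 6.78 and 34.3 ± 14.5 differed 2.57-fold, a log2 change of 1.33 ± 0.47 with a limma adjusted p of 0.189 (1.02 ± 0.39 and 0.0454 without knockdown replicate 2). Slc43a2, its close relative, was at 363, 351 and 403 against 228, 153 and 255. Its knockdown values were all lower, 1.76-fold in the mean, with a log2 change of -0.84 ± 0.23 and a limma adjusted p of 0.113 (-0.62 ± 0.09 and 0.000163 without that replicate). Per kilobase, Slc43a2 made up 8.36% to 14.0% of the large neutral carriers in the controls and 4.04% to 5.78% in the knockdown, and Slc7a5 most of the rest.

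The 27 members too low to test fell into clear classes. Slc36a2, Slc36a3, Slc38a11, Slc6a11, Slc6a19 and Slc7a12 were at 0 in all 6 libraries. In 19 members, these 6 included, no library exceeded 3 reads, so that changes in them were not detectable at this depth. The other 8 exceeded 3 reads in at least 1 library, and their highest mean was 8.02. Several silent members are direct neighbours of expressed ones in the RefSeq annotation. Slc36a3 and Slc36a2, at 0 throughout, lie beside Slc36a1, and Slc6a19, at 0 throughout, lies beside Slc6a18. Slc38a1, Slc38a2 and Slc38a4 lie in a row, and their log2 changes were -0.53, -0.57 and 1.14. Besides these neighbours, 7 members overlap another protein-coding gene in the annotation, among them Slc1a6, Slc38a6, Slc6a9 and Slc7a7, and reads of such pairs can be confused without strand information.

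Knockdown replicate 2, the library that stood apart, was also low in these families as a whole. The members together made up 0.292% to 0.312% of the summed normalised counts in the controls, 0.286% and 0.300% in knockdown replicates 1 and 3, and 0.129% in knockdown replicate 2. The last share is lowered also by the larger total of that library (19471638). The members' own sums were 39109 to 42575 in the controls and 37510, 25146 and 39484 in knockdown replicates 1, 2 and 3. Of the 32 tested members, 21 were lower in that library than in the mean of the other knockdown libraries, with a median log2 difference of -0.41 (all tested genes -0.10). The median transcript length was 2971 nucleotides for the tested members and 2758 for all tested genes. Weighting each library by how closely it followed its group gave 14 members higher and 8 lower (52.1% of all genes called, 25.2% higher and 26.9% lower). Knockdown replicate 2 had a weight of 0.017 there and the other libraries 1.45 to 3.14. That setting is therefore close to leaving knockdown replicate 2 out. Correcting each library for transcript length gave 3 higher (Slc1a4, Slc1a6 and Slc7a4) and 2 lower (Slc6a8 and Slc7a2), beside 11.7% of all genes (6.28% higher and 5.45% lower). With the library left out the median log2 change of the tested members was 0.15 (all genes -0.02). Its part in the smaller changes was not tested beyond these values.

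Genes of the surrounding amino acid pathways were counted from 6 lists. The counts that passed stand beside 4.98% of all tested genes (3.2% higher and 1.78% lower). Of 21 tested enzymes of glutamine, glutamate and proline metabolism (24 in the table) none passed the limma test (4 had an unadjusted p under 0.05, beside 20.46% of all genes), and the median log2 change was 0.18, or 0.09 without knockdown replicate 2. Of 21 tested amino acid response and serine, glycine and asparagine synthesis genes (23 in the table), 1 rose and 7 had an unadjusted p under 0.05. Their median was 0.51, or 0.27 without knockdown replicate 2. The gene that rose was Mthfd2, a mitochondrial enzyme of one-carbon metabolism, at 389, 529 and 516 in the controls and 872, 969 and 945 in the knockdown. The groups did not overlap, and the log2 change of 0.97 ± 0.18 had a limma adjusted p of 0.0389 (0.94 and 0.000349 without knockdown replicate 2). Of 13 tested other amino acid, glutamate and peptide carriers (19 in the table), 1 rose and 2 had an unadjusted p under 0.05. Their median was 0.09, or 0.02 without knockdown replicate 2. The gene that rose was Slc15a2, a proton-coupled carrier of small peptides, at 89.1, 60.1 and 56.9 against 209, 174 and 156. Its groups did not overlap either, and the log2 change of 1.39 ± 0.24 had a limma adjusted p of 0.0348 (1.41 and 0.000194 without knockdown replicate 2). Leaving out control replicate 1, 2 or 3 or knockdown replicate 1 or 3 took both genes past an adjusted p of 0.05, to between 0.129 and 0.184 for Mthfd2 and between 0.0931 and 0.187 for Slc15a2.

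The remaining lists held no gene that passed the limma test, and at an unadjusted p under 0.05 they held 7 of 31 sensing genes, 2 of 20 synthetases and 0 of 5 glutamate receptors, beside 20.46% of all genes. The 31 tested genes of amino acid sensing by mTORC1 had a median of -0.18, the 20 cytoplasmic aminoacyl-tRNA synthetases a median of 0.38, and the 5 tested glutamate receptor genes (26 in the table) a median of 0.21. Without knockdown replicate 2 these medians were -0.10, 0.19 and 0.42. Without knockdown replicate 2, where 23.8% of all genes were called higher and 26.1% lower, the synthetases had 10 higher and 2 lower, the amino acid response genes 9 and 2, the sensing genes 5 and 13, and the metabolic enzymes 6 and 4. In the same fit the other carriers had 3 higher and 2 lower of 12 tested, and the glutamate receptors 1 higher. Control replicate 1 was the lowest control in 20 of the 21 amino acid response genes and in 16 of the 20 synthetases, beside 3796 of all 12085 genes (31.41%). Its part in the medians of these lists was not tested.

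**Figure D5:**
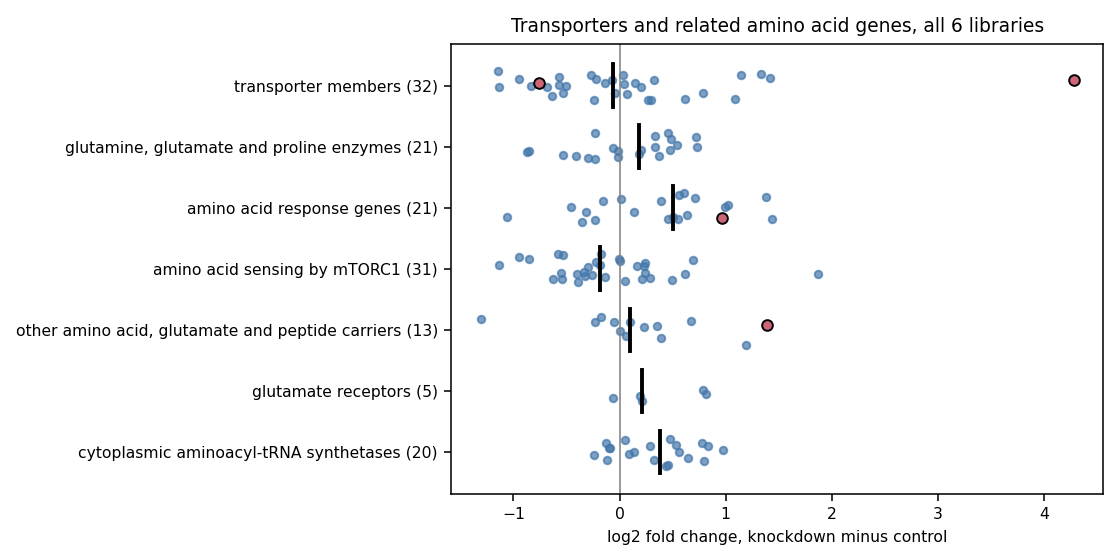
Log2 change (knockdown against control, all 6 libraries) of every tested gene in each pathway list and of the transporter members. The vertical bar is the list's median, red points with a black outline mark an adjusted p under 0.05, and the vertical scatter has no meaning. The amino acid response genes have a median of 0.51 with 1 gene past the test (Mthfd2), and the transporter members a median of -0.06 with 2; without knockdown replicate 2, which is included in the plot, the medians were 0.27 and 0.15.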

How the data were processed

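Total RNA of the 6 samples was sequenced from TruSeq libraries, per the labels' protocols. The submitters' processing notes name Bowtie 1.0.0, RSEM 1.2.12 and the mm9 build. No source used here names the annotation or the strand setting. The authors deposited 1 signal value per gene and library, an RSEM estimated count divided by a size factor, and a table of changed genes with fold values (ratio of group means). At most 90.4% of values up to 20 reads came out within 0.1 of a whole read, so no count test was run, and depth was read from the spacing of low values (4580000 to 51800000 reads per library).

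Genes with a mean of at least 10 were tested with limma 3.58.1 (R 4.3.3) on log2(value + 1) with the trend and robust options, over all genes, with Benjamini-Hochberg adjustment and a threshold of 0.05. The fold changes on this scale understate the change of low genes. An exact permutation test of 3 against 3 cannot go below 0.1 and was not used. The fit was tested on simulated data with the same spread in every library. That test therefore does not cover a library that stands apart, as knockdown replicate 2 did. The floor of detection was 3 reads per library. Lengths are medians of GENCODE basic transcripts and serve only for values per kilobase and a length correction; promoter sequences are RefSeq's.

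Members named in full passed the test, or had non-overlapping groups with a log2 change of at least 1 in size, or were the most abundant of their subfamily per kilobase. The other members described were named for their role, and 1 member is not reported here by name. The members and pathway lists were chosen with earlier results of these data known. The alternatives covered filters, pseudocounts, scaling, options of the fit, library weights, transcript length, a replicate block and leaving out each library.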

Additional observations from a re-analysis of the deposited data

How the results depend on the processing

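With 1 member called higher and 1 lower in all 6 libraries, the counts moved with the treatment of knockdown replicate 2. They also moved in settings that kept that library. Both counts were 0 without control replicate 1, 2 or 3 and without knockdown replicate 1. The number of members called higher was 2 with no filter on the mean, 14 with library weights, 3 with the length correction, 0 with the replicate block, and, in settings chosen after seeing the data, 14 with total scaling and 12 with the length correction when knockdown replicate 2 was also left out. It ranged from 0 to 14 when single libraries were left out. The number called lower was 0 with total scaling, 8 with library weights, 2 with the length correction, 0 with the replicate block, 6 and 9 in the combined settings, and 0 to 7 with single libraries left out. Over all genes, limma called 0 without control replicate 1, 2 or 3 (1495, 1529 and 1475 at an unadjusted p under 0.05) and 0 with the block (1866), 6302 with library weights (52.1%) and 1402 with the length correction (11.7%). With total scaling and knockdown replicate 2 left out, limma called 3253 genes higher and 2611 lower of 11995. With the length correction and that library left out, it called 2578 higher and 3782 lower of 11862. In all 6 libraries, total scaling moved the median log2 change of all genes from 0.01 to -0.14.

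Whether the replicate numbers pair the samples is not known. The deviations of same-numbered libraries from their group means correlated at 0.17, -0.0506 and -0.0507. The value of 0.17, for replicate 1, was the highest of all pairs, while control replicate 2 correlated best with knockdown replicate 3 (0.103). With 3 libraries per group and knockdown replicate 2 standing apart, these values cannot settle whether the samples were paired. With the replicate block the adjusted p was 0.0963 for Slc1a6 and 0.193 for Slc6a8. Over all settings these ranged from 1.09e-09 to 0.0963 and from 6.66e-08 to 0.215, and both kept their direction. The genes Mthfd2 and Slc15a2 had an adjusted p of 0.156 and 0.119 with the block and of 0.158 and 0.124 with total scaling.

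Of the log2 changes of tested members under the alternatives, 458 kept their direction and side of the threshold, 71 passed it only there, 12 no longer passed and 26 changed sign; all that changed sign belonged to members that had not passed. Without knockdown replicate 2 the sign changed for Slc36a1, Slc6a18, Slc7a1 and Slc7a14, whose values with single libraries left out ranged from -0.22 to 0.28, from -1.84 to 0.14, from -0.38 to 0.41 and from -0.12 to 0.16. It changed for the same genes with library weights (0.295, 0.044, 0.386 and -0.149), with total scaling and that library left out (0.331, 0.187, 0.458 and -0.0764) and with the length correction and that library left out (0.224, 0.0935, 0.413 and -0.137). With the length correction alone it changed for Slc38a9 (0.182), Slc3a2 (-0.0712) and Slc7a1 (0.261). With total scaling it changed for Slc3a2 (-0.00118), Slc7a11 (-0.102), Slc7a14 (-0.105) and Slc7a6 (-0.0699). It changed for Slc7a11 without knockdown replicate 1 or 3 (range with single libraries left out -0.170 to 0.457) and for Slc7a7 without knockdown replicate 1 (range -0.436 to 0.0532). The cause was not tested. Depth limited control replicate 2 and knockdown replicate 2, where 3 reads equal 7.52 and 12.8 normalised counts.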

Other observations

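Control replicate 1 was the lowest of the 3 controls more often in some gene lists than in others. It was the lowest control in 18 of the 32 tested transporter members (56.25%), in 20 of 21 amino acid response genes (95.24%) and in 16 of 20 aminoacyl-tRNA synthetases (80%), against 31.41% of all tested genes. It was the lowest in 6 of 21 glutamine, glutamate and proline enzymes (28.57%), 8 of 31 mTORC1 sensing genes (25.81%), 5 of 13 other carriers (38.46%) and 0 of 5 glutamate receptors. The stress-induced genes Trib3 (407 against 734 and 813 normalised counts) and Chac1 (165 against 323 and 282) and the asparagine synthetase gene Asns (800 against 1060 and 1014) were each lower in it than in the other controls. The transporter genes Slc7a5 (1104 against 1917 and 1858) and Slc3a2 (2532 against 3161 and 2933) showed the same order. These differences lie within the control group, were noticed in the data and carry no test.

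Most markers of other cell types were low. The epithelial marker sum was 15.0 to 31.6 in the controls and 17.1 to 42.5 in the knockdown, mostly from Cdh1. The leukocyte sum was 100 to 123 and 91.0 to 213, mostly from Cd14 (76.8 to 96.8 and 63.2 to 162). The endothelial sum was 87.7 to 107 and 106 to 156, mostly from Tek (87.7 to 106 and 102 to 148).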
